A study of Mus musculus with 1600 samples.

Results

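A set of 30 genes of DNA replication and of the step from G1 into S phase was followed across single cells of embryonic mouse limbs. They cover the replicative helicase, the proteins that load and start it, primase, clamp and lagging strand enzymes, deoxynucleotide synthesis, the cyclins E, and chromatin and S phase factors. The list was drawn up by function, with earlier results of these data known. All 30 genes were found among the 22092 gene symbols of the deposited count table, and all 30 passed the filter of counts in 10 or more kept cells, as did 13125 genes in total.

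By their labels the cells came from hind limbs of C57BL/6 embryos carrying an SCX-GFP transgene, a reporter of scleraxis, which marks tendon and ligament progenitors. No nontransgenic group was used here, and no sort for GFP is named in the labels. Limbs of siblings from 1 litter were pooled at each of the 3 stages E10.5, E12.5 and E15.5, so each stage was 1 sample and no test between stages was possible. The Fluidigm C1, a chip that captures cells in separate chambers, gave 120, 160 and 200 cells, of which 119, 158 and 200 with at least 1000 detected genes were kept.

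Cells were processed in 12 library pools of 40, with pools 1 to 3 from E10.5, 4 to 7 from E12.5 and 8 to 12 from E15.5. All 40 cell barcodes were used again in every pool. Pools are a technical split of a stage, not replicate embryos. Total counts were 33742559, 46009284 and 46035725 at the 3 stages, with medians of 272198, 250710 and 192228 counts per kept cell. Levels are given as CPM, counts scaled to a common total, summed over the cells of a stage or pool. They are not divided by gene length, so a level is compared between stages for the same gene and not between genes.

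The limb identity of the earliest cells went against their label. Tbx5, the forelimb identity gene, was at 67.9, 0.739 and 6.32 CPM at the 3 stages. Pitx1, the hind limb identity gene, was not counted in any of the 119 cells carrying the E10.5 label (0 counts, exact Poisson upper limit 0.109 CPM), while it reached 169 CPM at E12.5, then 68.7 CPM. Every value for E10.5 below refers to the library pools labelled so, and limb identity and age cannot be told apart in a comparison with them. The comparison of E15.5 with E12.5 does not use these cells.

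Before a cell copies its DNA, the complex of Mcm2 to Mcm7 is loaded on origins by Cdc6 and Cdt1, then switched on in S phase with Cdc45, the GINS complex and Mcm10. Primase and polymerase alpha start each strand, Pcna clamps the polymerases to DNA, and Fen1 and Lig1 process and join the lagging strand pieces. Cyclin E with its kinase drives entry into S phase, and E2F factors, held back by the pocket proteins in resting cells, are known to drive transcription of much of this gene set. In growing limbs, proliferation is known to slow in cells that differentiate into cartilage or muscle.

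The promoter sequences of the genes are shown because the E2F-type letters were more frequent among them than among all promoters. RefSeq promoter windows (GRCm38.p6, 250 bases before to 50 bases after the start) were found for 26 of the 30 genes. Mcm4, Gins1, Gins2 and Ccne2 had no entry. Any of the letters TTTCCCGC, TTTCGCGC, TTTGCCGC or TTTGGCGC, on either strand, occurred in 12 of the 26 genes, 46.2% (exact Clopper-Pearson interval 26.6% to 66.6%). Among all 27025 genes with a window the share was 2.605%. The windows of the 26 genes were also richer in G and C, with a median of 61.3% against 52.7% over all genes, and the part of base composition was not tested.

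The 4 stretches below hold a match upstream of the annotated gene, with the E2F-type letters in capitals, 5′ to 3′ along the gene. They stand for 2 helicase subunits, Mcm6 and Mcm5, for Dtl, a ubiquitin ligase subunit that removes Cdt1 in S phase, and for Pola1, the catalytic subunit of polymerase alpha. Mcm6 lies at chr1:128359734-128359763 on the minus strand, 39 bases before its start. Dtl lies at chr1:191575545-191575574 on the minus strand and its match ends at the start. Mcm5 lies at chr8:75109349-75109378 on the plus strand, 141 bases before its start, and Pola1 at chrX:93632275-93632304 on the minus strand, 130 bases before its start.
Mcm6: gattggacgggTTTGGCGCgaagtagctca
Dtl: caatcagaaagcgtgacgtcagTTTGGCGC
Mcm5: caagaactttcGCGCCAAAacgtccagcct
Pola1: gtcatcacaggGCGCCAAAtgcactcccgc

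The matches in Mcm5 and Pola1 read on the opposite strand. The 4 stretches were picked for lying outside the annotated gene, and their shared letters, TTTGGCGC or the complement, are not typical of all matches. The match was TTTCCCGC or its complement in Hells, Mcm7 and Cdc6, and TTTCGCGC in Rfc3 and Uhrf1. The other genes with a match were Mcm3, Mcm7, Cdc6, Cdt1, Uhrf1, Hells, Rfc3 and Lig1. CCAAT, the letters bound by NF-Y, occurred on either strand in 17 of the 26 genes (65.4%) against 41.1% of all genes. TTTGAA or TTCGAA, the letters of the cell cycle homology region known from mitotic genes, occurred in 5 of the 26 (19.2%) against 21.7% of all genes. In 1 window of these genes the E2F-type letters overlapped letters of another motif. A match is a run of letters and not a measured binding site.

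The summed level of the 30 genes was lower at each later stage. Over the E10.5 cells the sum was 5935 CPM (exact Poisson interval 5909 to 5961, counting error only). It was 4477 CPM (4458 to 4496) over the E12.5 cells. Over the E15.5 cells it was 3015 CPM (2999 to 3031). The E10.5 pools were at 6074, 5641 and 6115 CPM. The E12.5 pools were at 5591, 3696, 4641 and 4078 CPM, and the E15.5 pools at 2950, 3093, 2688, 2851 and 3375 CPM. No pool of a later stage reached the lowest pool of the stage before, and pool 4 of E12.5 came closest to it. The sum was 1.33-fold lower at E12.5 than at E10.5 (log2 ratio -0.41), 1.48-fold lower from E12.5 to E15.5 (-0.57) and 1.97-fold lower over the whole span (-0.98). The spread between pools was wider than the intervals from counts.

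**Figure D1:**
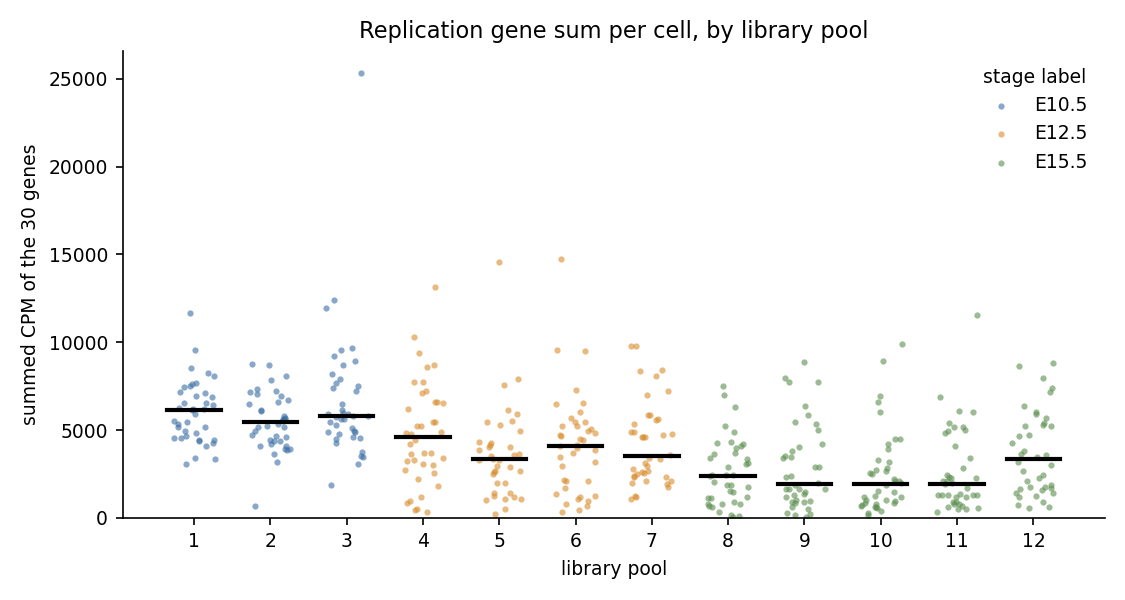
Summed CPM of the 30 genes in each kept cell (points), by library pool, with the median of the pool (black line). The pool medians lie between 5443 and 6161 CPM at E10.5, 3340 and 4598 at E12.5 and 1944 and 3331 at E15.5, and 1 cell of pool 3 stands at 25340 CPM.

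Log2 ratios of single genes are of stage CPM with 5 CPM added, while folds are of stage CPM alone. The 2 therefore differ most at low levels. A gene was called lower or higher when its log2 ratio of stage CPM, with 5 CPM added, was at least 1 in size and the pools of the 2 stages did not overlap. By this rule 4 of the 30 genes were lower and 0 higher at E12.5 than at E10.5. Among all tested genes 2.83% were called lower and 7.76% higher in that comparison. At E15.5 against E12.5, 2 of the 30 were lower and 0 higher, against 1.63% lower and 2.99% higher among all tested genes. From E10.5 to E15.5, 13 of 30 were lower and 0 higher, against 5.01% lower and 11.2% higher. These comparisons share samples and are not separate evidence, and since the genes were chosen with earlier results known, the contrast with all tested genes is a description.

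By the looser rule of pools that do not overlap, 10, 5 and 19 of the 30 genes were lower in the 3 comparisons, in the same order, and 0 were higher. Among all tested genes, 7.05%, 4.32% and 9.97% were lower by this rule. The ratio lay below 0 for 25, 28 and 29 of the 30 genes. The median log2 ratio of the 30 was -0.32 at E12.5 against E10.5, -0.55 at E15.5 against E12.5 and -0.95 over the whole span. The medians over all tested genes were 0.17, -0.04 and 0.15. The counts for neighbouring stages depend on single pools. The 4 genes called at E12.5 against E10.5 became 2 without pool 3 and 7 without pool 4. The 2 genes called at E15.5 against E12.5 became 4 without pool 5 and 4 without pool 12. The count of 13 stayed between 12 and 16 as each pool was left out. Leaving out a pool can undo a call only through the ratio, since it cannot make separate pools overlap. The count of 13 became 10 when the epidermis-, muscle- and endothelium-like clusters described below were left out.

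**Figure D2:**
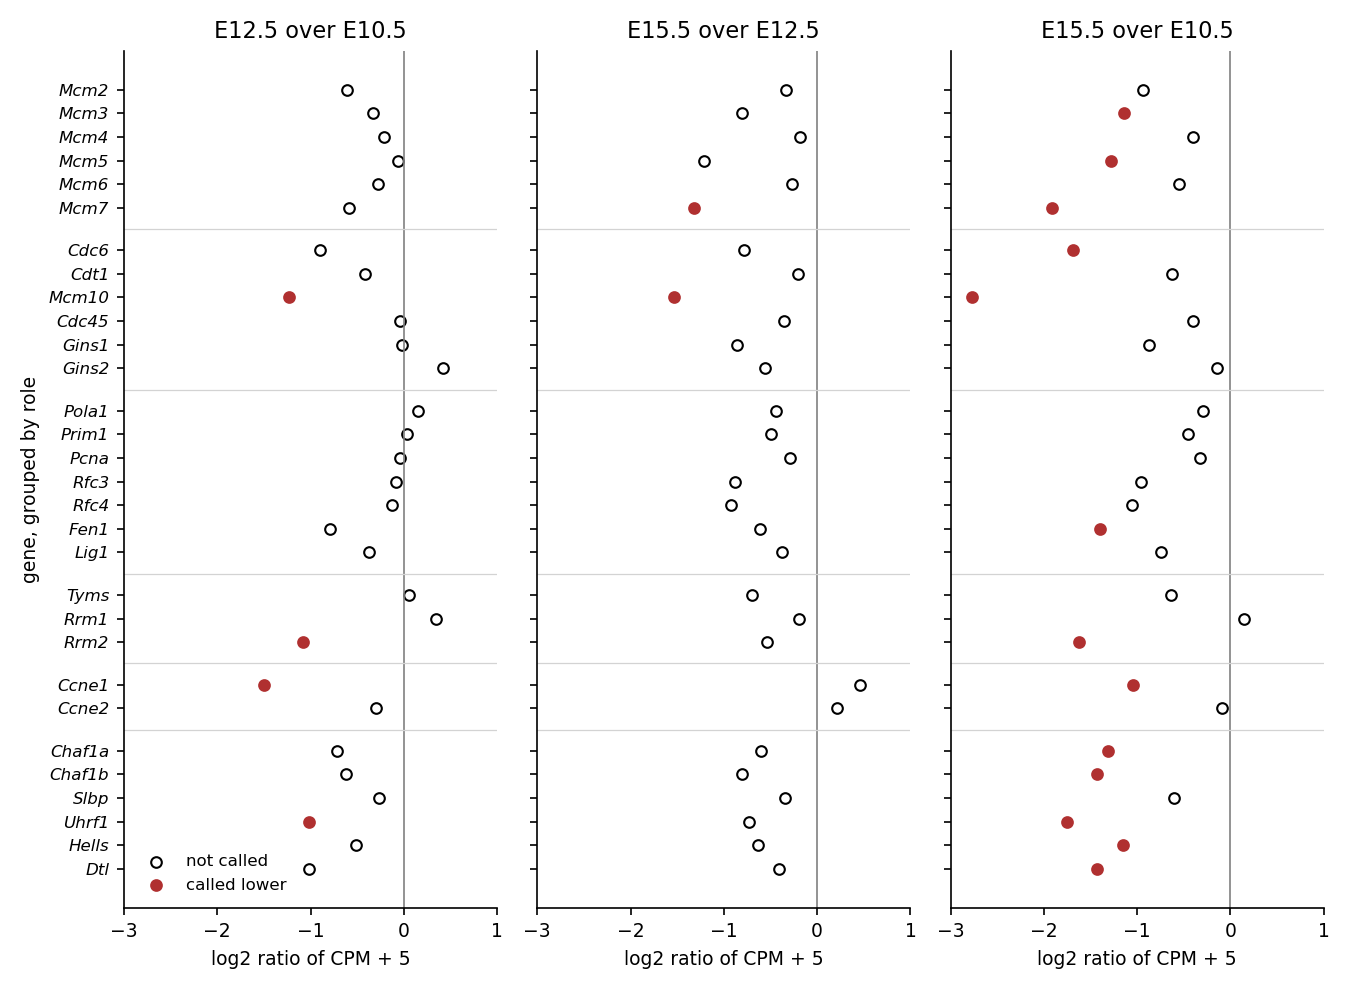
Log2 ratio of CPM with 5 added for each of the 30 genes, grouped by role, in the 3 stage comparisons (filled points, called lower; open points, not called). In the panel of E15.5 over E10.5, 13 points are filled and 1 point, Rrm1, lies right of 0.

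Mcm2 to Mcm7, the 6 subunits of the ring-shaped replicative helicase, were together at 1951, 1513 and 914 CPM at the 3 stages. Their E12.5 pools ran from 1023 to 1950 CPM and their E15.5 pools from 694 to 1044 CPM, so these neighbouring stages overlapped. Although the subunits assemble as a ring of equal parts, their ratios were uneven. Mcm7 was at 648, 526 and 449 CPM in the E10.5 pools. It was at 437, 302, 375 and 342 CPM in the E12.5 pools and at 204, 142, 109, 114 and 121 CPM in the E15.5 pools. No pools of different stages overlapped, and Mcm7 fell 2.56-fold from E12.5 to E15.5 and 3.86-fold over the whole span (log2 ratios -1.32 and -1.91). It was called at E15.5 against E12.5 with each pool left out, with log2 ratios between -1.54 and -1.22.

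The other subunits moved less or less evenly. Mcm5 was at 341 CPM, 325 CPM and 138 CPM at the 3 stages, so its level over the last interval was 2.36-fold lower. That difference was not called, because pool 5 of E12.5, at 171 CPM, lay below pool 12 of E15.5, at 207 CPM. Over the whole span Mcm5 was called lower (log2 ratio -1.28), and it was not called with the mean of per-cell CPM. Mcm3 was at 226, 179 and 99.9 CPM and was called lower over the whole span, at -1.14, and not called without pool 2, at -0.92. Mcm2 (272, 176 and 139 CPM), Mcm6 (401, 330 and 273 CPM) and Mcm4 (163, 139 and 122 CPM) were not called in any comparison. Their log2 ratios over the whole span were -0.94, -0.55 and -0.40.

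Among the 6 genes that load and start the helicase, Mcm10 had the lowest log2 ratio of all 30 genes at E15.5 against either earlier stage, while Ccne1 had the lowest at E12.5 against E10.5. Mcm10, which helps to activate the loaded helicase, was at 102, 113 and 93.1 CPM in the E10.5 pools. It was at 35.5, 46.9, 31.6 and 46.7 CPM in the E12.5 pools and at 15.4, 5.81, 4.98, 0.383 and 21.5 CPM in the E15.5 pools. The pools of the 3 stages did not overlap. Mcm10 fell 2.52-fold to E12.5 and 3.78-fold from there to E15.5, and was 9.52-fold lower over the whole span. Its log2 ratios, with 5 CPM added, were smaller in size than these folds, at -1.23, -1.54 and -2.77. With the mean of per-cell CPM Mcm10 was not called at E15.5 against E12.5, at -1.21.

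After every cell was thinned to 50000 counts, Mcm10 was read in 56 of 115 E10.5 cells (48.7%, exact Clopper-Pearson interval 39.3% to 58.2%). The count was 38 of 149 among E12.5 cells (25.5%, 18.7% to 33.3%). Of the E15.5 cells, 14 of 185 had a read (7.57%, 4.20% to 12.4%). Without thinning the shares were 63%, 30.4% and 10%. Of its counts at E15.5, 24.6% came from 1 cell. Cdc6, the loader of the helicase, was at 65.6, 32.8 and 17 CPM and was called lower over the whole span, at -1.68. That call was lost, at -1.18, when cells of epidermis-, muscle- and endothelium-like clusters were left out.

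The other genes of this role were not called. Cdt1, the partner of Cdc6 in loading, was at 139, 102 and 88 CPM. The GINS subunit Gins1 was at 53.6, 53 and 26.9 CPM, and Gins2 of the same complex at 56, 76.3 and 50.4 CPM. Cdc45, which joins GINS at the active helicase, was at 27.9, 26.9 and 19.9 CPM. All 4 were lower at E15.5 than at E10.5 by ratio, with log2 ratios between -0.88 and -0.14.

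**Figure D3:**
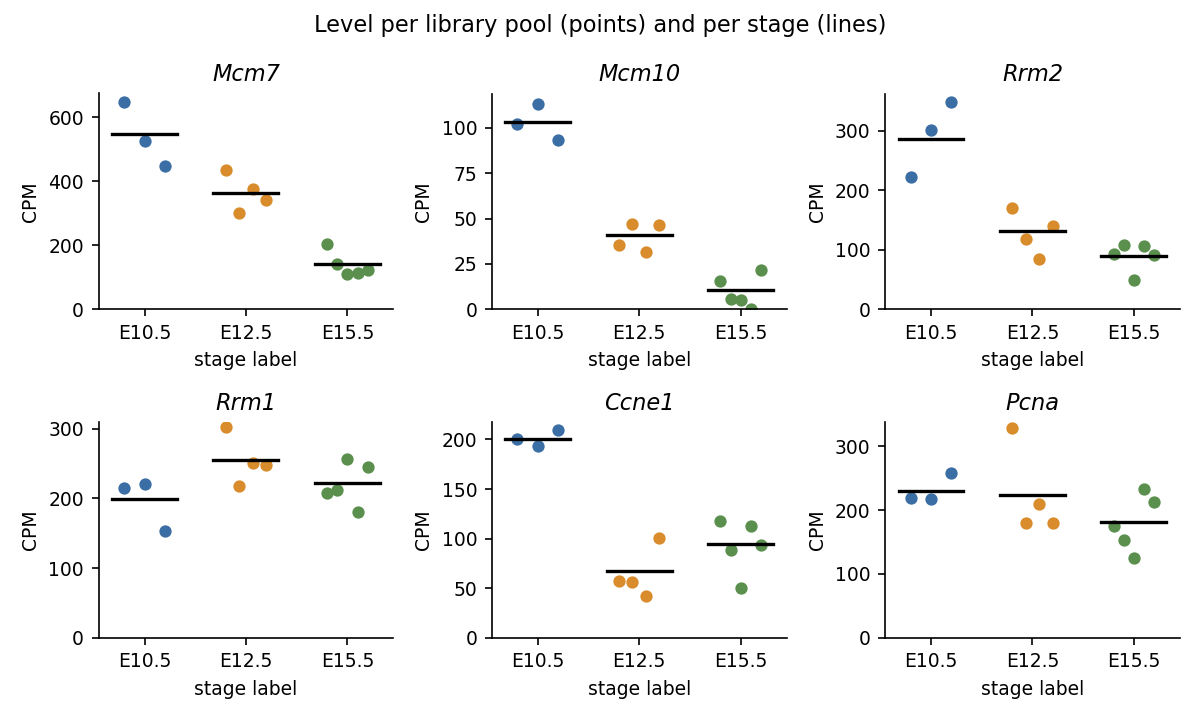
CPM of 6 genes in each library pool (points) and over each stage (lines), with the stage label on the x axis and the y axis starting at 0. Mcm7 and Mcm10 separate all 3 stages, Rrm2 falls while Rrm1 of the same enzyme lies between 153 and 302 CPM in every pool, Ccne1 is lowest at E12.5, and the pools of Pcna overlap.

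Of the 7 primase, clamp and lagging strand genes, 1 was called. Fen1, the nuclease that trims the lagging strand pieces, was at 117, 120 and 113 CPM in the E10.5 pools. It was at 95.6, 48.7, 76.2 and 47.9 CPM in the E12.5 pools and at 33.8, 63.1, 13.7, 48.7 and 46.2 CPM in the E15.5 pools. It was 2.84-fold lower at E15.5 than at E10.5 (log2 ratio -1.40), and the later stages overlapped with each other. Pcna, the sliding clamp and a common mark of proliferating cells, was at 230, 223 and 182 CPM, with a log2 ratio of -0.33 over the whole span and overlapping pools. Its share of cells with a count after thinning was 88.7%, 71.8% and 65.9%.

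The clamp loader subunits Rfc3 (150, 142 and 74.6 CPM) and Rfc4 (207, 189 and 96.9 CPM) had log2 ratios of -0.08 and -0.13 at E12.5 against E10.5, and of -0.88 and -0.93 between the later stages. The Rfc4 pools of E15.5 ran from 61.8 to 159 CPM and did not overlap those of E12.5, which began at 166 CPM. Lig1, the ligase that joins the pieces, was at 406, 313 and 240 CPM. The polymerase alpha subunit Pola1 (104, 116 and 83.9 CPM) and the primase subunit Prim1 (113, 116 and 81.1 CPM) had ratios above 0 at E12.5 against E10.5 and were not called anywhere.

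The 2 subunits of ribonucleotide reductase, the enzyme that makes deoxynucleotides, had ratios of opposite sign over the whole span. Rrm2, the small subunit whose supply is known to follow S phase, was at 223, 301 and 348 CPM in the E10.5 pools. It was at 171, 118, 84 and 141 CPM in the E12.5 pools and at 92.3, 108, 48.9, 106 and 90.7 CPM in the E15.5 pools. It was 2.16-fold lower at E12.5 than at E10.5 and 3.19-fold lower at E15.5 (log2 ratios -1.08 and -1.62). The first of these calls was lost without pool 3, at -0.96, and without pool 6, at -0.97. Its share of cells after thinning went from 93% through 57% to 40%.

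Rrm1, the large subunit, was at 199, 255 and 221 CPM, and its log2 ratio over the whole span, 0.15, was the highest of the 30 and not called. Its pools overlapped at all 3 stages. Tyms, which makes thymidylate, was at 180, 188 and 114 CPM. Its E15.5 pools, up to 136 CPM, lay below its E12.5 pools, from 167 CPM, with a log2 ratio of -0.70.

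Cyclin E1 had its lowest level at the middle stage. Ccne1 was at 201, 193 and 209 CPM in the E10.5 pools and at 57.3, 55.9, 41.9 and 101 CPM in the E12.5 pools. It was at 118, 89, 50.7, 113 and 94 CPM in the E15.5 pools. It was 2.96-fold lower at E12.5 than at E10.5 (log2 ratio -1.50), a call kept with each pool left out. At E15.5 the level was 94.8 CPM against 67.6 CPM at E12.5, with overlapping pools and no call. Its call over the whole span, at -1.04, was lost at -0.92 without pool 10 and at -0.90 without the epidermis-, muscle- and endothelium-like clusters. Ccne2, the other cyclin E, was at 47.6, 37.7 and 44.3 CPM and was not called.

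Of the 6 chromatin and S phase genes, 5 were called lower from E10.5 to E15.5. Uhrf1, which carries DNA methylation over to the new strand, was at 423, 322 and 555 CPM in the E10.5 pools and at 269, 229, 214 and 137 CPM in the E12.5 pools. It was at 117, 130, 145, 83.6 and 135 CPM in the E15.5 pools. It was 2.05-fold lower at E12.5 than at E10.5 and 3.46-fold lower at E15.5 (log2 ratios -1.02 and -1.75). The call at E12.5 was lost without pool 3 (-0.84), without pool 7 (-0.82) and without the epidermis-, muscle- and endothelium-like clusters (-0.93).

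Dtl was at 175, 83.9 and 62 CPM. It was 2.09-fold lower at E12.5 than at E10.5 and not called there, because pool 4 of E12.5, at 145 CPM, lay above pool 1 of E10.5, at 117 CPM. Over the whole span it was called, at -1.43. Chaf1a and Chaf1b, the large and middle subunits of the histone chaperone that follows the fork, were at 151, 89.9 and 57.6 CPM and at 98.4, 62.1 and 33.3 CPM, with log2 ratios of -1.32 and -1.43. The Chaf1a call was lost with the mean of per-cell CPM and without the epidermis-, muscle- and endothelium-like clusters. Hells, a chromatin remodeller needed for DNA methylation, was at 199, 138 and 86.8 CPM, with a log2 ratio of -1.15. Slbp, which binds histone mRNA, was at 249, 207 and 162 CPM and was not called. Of the 12 genes with the E2F-type letters 7 were called lower over the whole span, and of the 14 other genes with a promoter window 6 were.

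Marker levels of differentiated cell types moved with the stages, and their part in the stage ratios was not tested beyond 1 recalculation. The summed level of 14 epidermal markers went from 33.3 CPM at E10.5, with 3 of the 14 at 0, through 226 CPM to 1626 CPM at E15.5. That of 13 connective tissue markers went from 491 through 2707 to 11791 CPM. Other lists took other courses. The 19 muscle markers were at 208, 1266 and 379 CPM, with E12.5 pools from 33 to 3811 CPM. The 11 endothelial markers were at 179, 180 and 334 CPM, and the 4 mast cell markers at 7.79, 17.7 and 804 CPM, with E15.5 pools from 1.24 to 1867 CPM. For the recalculation all 477 kept cells were clustered together, apart from the E15.5 clusters below. Its epidermis-, muscle- and endothelium-like clusters held 5, 16 and 50 cells of the 3 stages. Without them the log2 ratio of the summed 30 genes was -0.36, -0.49 and -0.85. Over the whole span the genes called lower then went from 13 to 10. Those with pools not overlapping went from 19 to 14. An unnamed cluster of 27 cells led by the mast cell genes Cma1, Cpa3 and Tpsb2 was kept in.

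Related genes outside the 30 were read from 7 lists with 89 genes, of which 86 were tested. At E12.5 against E10.5, 5 were called lower and 2 higher, with a median log2 ratio of -0.08. At E15.5 against E12.5, 4 were lower and 0 higher, with a median of -0.26. Over the whole span 15 were lower and 3 higher, with a median of -0.41. Among all tested genes 2.83% were lower and 7.76% higher in the first comparison. The shares were 1.63% and 2.99% in the second, and 5.01% and 11.2% over the whole span. In polymerases and fork proteins, 5 of 23 were lower over the whole span, among them Pole (142 to 47.9 CPM), the leading strand polymerase, Pold3 (126 to 45.4 CPM), a subunit of the lagging strand polymerase, and Timeless (105 to 37.4 CPM), which steadies the fork. In origin recognition and firing 3 of 17 were lower, namely Mcmbp (154 to 60.6 CPM), which binds helicase subunits, Gmnn (159 to 71 CPM), the inhibitor of Cdt1, and Dbf4 (85.8 to 37.5 CPM), the activator of the Cdc7 kinase. Between neighbouring stages Pola2, a polymerase alpha subunit (345 to 99.9 CPM), Pole and the origin recognition subunit Orc2 (111 to 50.8 CPM) were lower at E12.5, and Timeless, Dbf4 and the clamp loader subunit Rfc5 (59.7 to 22.5 CPM) were lower at the last stage. None of the genes of these 2 lists was called higher in any comparison.

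Nasp, a carrier of histones, led the chromatin list, of which 2 of 12 were lower over the whole span. It was at 1407, 966 and 266 CPM, and its pools of the 3 stages did not overlap. Dnmt1, the maintenance methyltransferase that Uhrf1 guides, went from 405 to 181 CPM. In deoxynucleotide supply Dut (290 to 108 CPM), which removes dUTP, and Shmt1 (66.3 to 24.2 CPM), which supplies the one-carbon unit, were the 2 of 7 called lower. Of the G1 cyclins and kinases, Mycn, a growth-promoting transcription factor, was at 80.3, 11.4 and 10 CPM, called lower at both later stages against E10.5, and Ccnd2, a cyclin D, was 2.12-fold higher at E12.5 than at E10.5.

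Inhibitors of the cyclin-dependent kinases were the related list with calls upward and none downward. Of 7 listed, 4 were tested, and 3 of these were called higher over the whole span, beside 11.2% of all tested genes. Cdkn1c, the inhibitor p57, was at 296, 1322 and 2067 CPM, which is 6.99-fold higher over the whole span. Cdkn1a, the inhibitor p21, was at 8.51, 13.8 and 54.8 CPM. Cdkn2c had 0 counts at E10.5 and was at 7.78 CPM at E15.5. Of 13 E2F, DP and pocket protein genes, E2f3 (83.2 to 27.8 CPM) and Tfdp1 (11.4 to 2.54 CPM) were called lower over the whole span.

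Genes of mitosis, which act after replication is complete, were read as a separate list of 24. Their sum over all cells was 5490, 6343 and 4269 CPM at the 3 stages, highest at E12.5. The median cell did not follow that sum, with 5035, 3804 and 1564 CPM of mitosis genes, 3.22-fold lower over the whole span. The lower quartile was at 3579, 745 and 317 CPM and the upper quartile at 6693, 8532 and 6013 CPM. At E12.5 against E10.5, 0 of the 24 were called lower and 2 higher, Nusap1 and Ube2c, with a median log2 ratio of 0.08. Among all tested genes 2.83% were called lower and 7.76% higher there, so the 2 of 24 lay near the general share. At E15.5 against E12.5, 0 were called in either direction and the median was -0.50, beside -0.55 for the replication genes. Over the whole span Bub1 and Plk1 were lower and Nusap1 higher, beside 5.01% lower and 11.2% higher among all tested genes.

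In single cells the lower end of the distribution moved most. The median sum of the 30 genes per cell was 5650, 3777 and 2111 CPM at the 3 stages. The lower quartile was at 4584, 2252 and 1141 CPM, which is 4.02-fold lower over the whole span. The upper quartile was at 7187, 5455 and 4214 CPM, which is 1.71-fold lower. At matched depth of 50000 counts, the median cell had a read of 20, 15 and 11 of the 30 genes. Of the kept cells 4, 9 and 15 were too shallow for this depth.

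At matched depth 58 of 115 cells labelled E10.5 lay at or above their own median of 5700 CPM. Of the E12.5 cells, 34 of 149 did (22.8%, exact Clopper-Pearson interval 16.3% to 30.4%). Of the E15.5 cells, 26 of 185 did (14.1%, 9.39% to 19.9%). Without thinning the shares were 50.4%, 22.2% and 13.5%. The cut lies within a continuous range, with 49, 31 and 26 cells within 1.2-fold of it. Below 2850 CPM there were 1 of 115, 50 of 149 (33.6%) and 109 of 185 cells (58.9%).

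**Figure D4:**
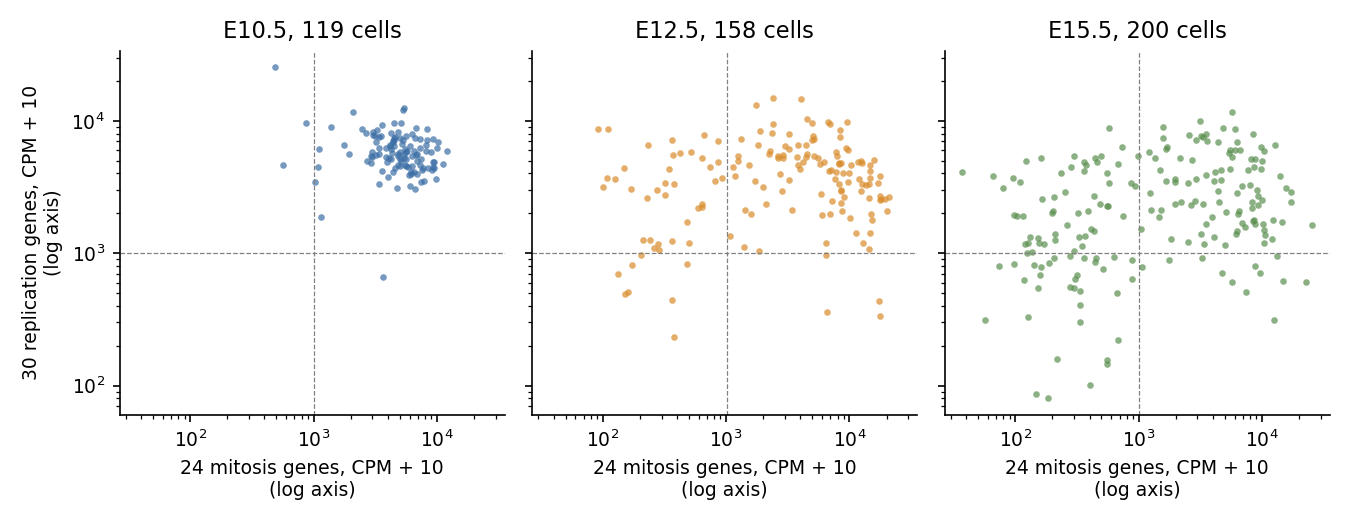
Summed CPM of the 30 replication genes (y axis) and of 24 mitosis genes (x axis) in each kept cell, both with 10 CPM added and on log axes, by stage. Dashed lines mark 1000 CPM of each sum, under which both sums lie in 0, 8 and 34 cells at the 3 stages.

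A cut at 1000 CPM, chosen after the values were seen, describes the cells with little of either set. The mitosis sum was under it in 3 of 119, 44 of 158 and 90 of 200 cells at the 3 stages. The replication sum was under it in 1, 12 and 46 cells. Of the 12 E12.5 cells, 8 were also under it for mitosis, and of the 46 E15.5 cells 34 were. The other 4 and 12 cells had a mitosis sum of at least 1000 CPM.

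Across cells of a stage the 30 genes varied together weakly. At matched depth the median Spearman rho of the 435 gene pairs was 0.03, 0.17 and 0.19 over 115, 149 and 185 cells of the 3 stages. The sum of Mcm2 to Mcm7 had a rho with the sum of the other 24 genes of 0.15, 0.57 and 0.57. The rho of the replication sum with the mitosis sum was -0.24, 0.00 and 0.26. These cells share libraries, and the rho of the replication sum with the number of detected genes was -0.07, 0.22 and 0.13. Correlations of sparse counts are given as descriptions.

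Genes outside all cycle lists most like the replication sum were ranked by the mean of the Spearman rho within the 3 stages, over 6664 genes read in at least 20% of cells of each stage. Among the 10 highest were 2810417H13Rik at 0.34, Dek at 0.32, Exo1 at 0.30, Skp2 at 0.26, Ung at 0.26, Zfp367 at 0.26, Atad5 at 0.24, Fam111a at 0.23 and Nop58 at 0.23. The median over the ranked genes was 0.01 and the 99th percentile 0.17. 2810417H13Rik is an older symbol of Pclaf, the PCNA-associated factor. Its level was 695, 507 and 380 CPM at the 3 stages. Fam111a went the other way across stages, at 27.9, 50.8 and 84.5 CPM.

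At E15.5 the 200 cells were clustered on genes outside all the cycle lists, which gave 10 clusters. From markers, 4 were named, an epidermis-like cluster of 23 cells led by Krtdap, Perp and Krt5, a cartilage-like cluster of 26 with Col9a1, Acan and Col2a1, a muscle-like cluster of 18 with Actc1 and Ttn, and an endothelium-like cluster of 10 with Esam and Cdh5. The other 6 stayed unnamed. Names and sizes changed with the clustering resolution. At 0.5 instead of 1 the cartilage-like cluster had 18 cells. A tendon-like cluster of 55 cells, with Tnmd, Scx and Kera, was then named and took in some of the 26 cells. Cluster 6, with 32 cells, was led by the mast cell genes Cpa3, Cma1 and Tpsb2 together with Tyrobp and Laptm5.

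The summed 30 genes were at 3901 CPM in cluster 6, 3235 CPM in the cartilage-like, 2970 CPM in the muscle-like, 2478 CPM in the epidermis-like and 1687 CPM in the endothelium-like cluster. The 5 unnamed clusters other than cluster 6 together held 91 cells at 3045 CPM. Singly, clusters 4, 5, 7, 9 and 10 were at 3119, 2545, 3321, 2669 and 3305 CPM, so clusters 7 and 10 lay above the cartilage-like cluster. Pools ran from 1448 to 7431 CPM in cluster 7 and from 1697 to 6980 CPM in cluster 10. At matched depth cluster 10, with 9 cells, had the highest median of the 10 clusters, 3800 CPM against 3580 CPM in cluster 6. Within clusters the pools ran from 2387 to 6475 CPM in cluster 6, 851 to 3791 in the cartilage-like, 1918 to 4777 in the muscle-like, 1512 to 3437 in the epidermis-like and 845 to 2359 in the endothelium-like cluster. Of these 5 only the endothelium-like cluster and cluster 6 had pool ranges that did not overlap, and all 5 came from 1 pooled litter. Those 2 ranges nearly met, at 2359 and 2387 CPM, and the endothelium-like cluster had 10 cells over 4 pools. The lowest pool value of the cartilage-like cluster, 851 CPM, was that of 1 cell. Single cells held 12.4% to 25.4% of the counts of these clusters.

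**Figure D5:**
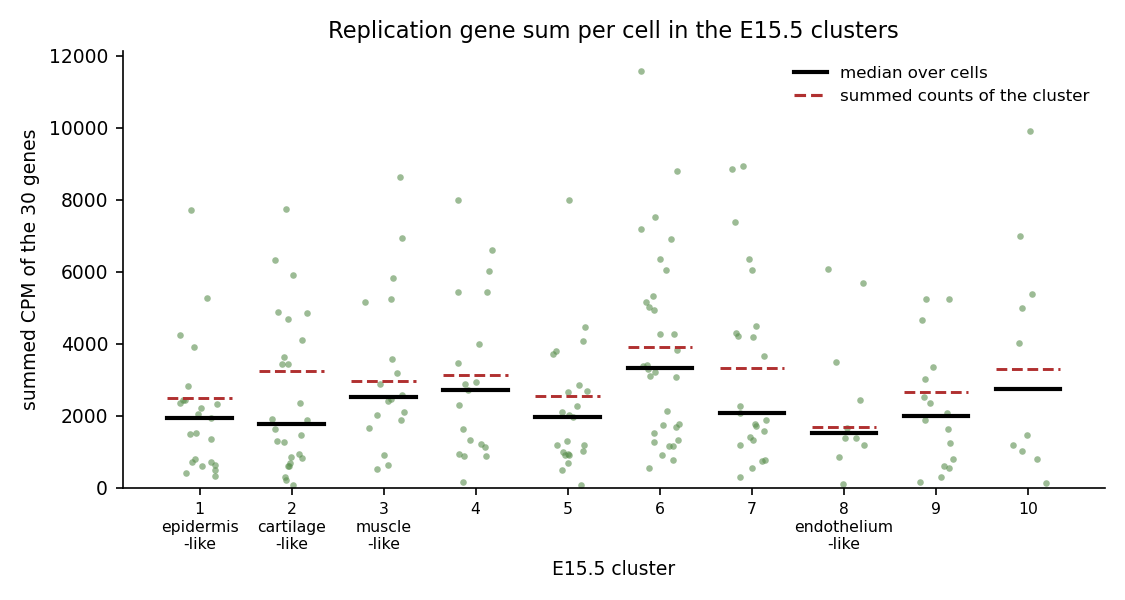
Summed CPM of the 30 genes in each cell of the 10 E15.5 clusters (points), with the median over cells (black line) and the level from summed counts (dashed red line). The highest cell of each cluster lies between 5245 and 11567 CPM, and cluster 6 stands at a median of 3335 CPM and the endothelium-like cluster at 1526 CPM.

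The order changed with how cells were weighed. At resolution 1 the median over cells was 3335 CPM in cluster 6, 2509 CPM in the muscle-like and 1944 CPM in the epidermis-like cluster. It was 1763 CPM in the cartilage-like and 1526 CPM in the endothelium-like cluster. The cartilage-like cluster thus went from next highest to next lowest of these 5. That rank is given for resolution 1 only, where the cluster included cells placed in the tendon-like cluster at resolution 0.5. The 18 cells still cartilage-like at resolution 0.5 were at 3374 CPM by summed counts. Their rank by median is not given. Cluster 6 had the highest level of the 10 clusters for 7 of the 30 genes, which were Mcm10, Tyms, Gins2, Rrm1, Rrm2, Fen1 and Lig1. Its Mcm10 counts came from 4 of 32 cells, with 53.9% from 1 cell. The unnamed cluster 10, of 10 cells, was highest for 5 genes and lowest for 0. The endothelium-like cluster had the lowest level for 13 genes and the highest for 0, and it tied with the cartilage-like cluster at 0 counts of Mcm10. How often each cluster was highest or lowest over all genes is not given here. These counts of ranks are therefore a description and not a trait of the replication genes. The muscle-like cluster had the highest Ccne1, at 286 CPM, and the highest Cdkn1c, at 4849 CPM. The mitosis genes were at 1845 CPM in the cartilage-like and 5349 CPM in the epidermis-like cluster, the reverse of their order by summed counts of the replication genes.

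Genes of other cell types were also counted in these clusters. At matched depth Col2a1, a cartilage gene, had a count in 10 of 21 epidermis-like cells (47.6%, exact Clopper-Pearson interval 25.7% to 70.2%) and 23 of 24 cartilage-like cells. Krt14, an epidermal gene, had a count in 6 of 24 cartilage-like cells (25%). Median depths were 274067 and 165785 counts in the epidermis-like and cartilage-like cells compared. No cluster was known to lack the replication genes, so their own floor was not measured and no correction was made.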

How the data were processed

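Whole-number read counts for each gene in each cell were deposited, made by the authors with Bowtie2, featureCounts and the mm10 build per the submitters' processing notes. Versions, annotation and use of molecular identifiers: not given in the sources used here. Reads copied by PCR may therefore be counted more than 1 time. Another set of 1120 samples was not used. Of 22738 entries in the table, those repeated for a symbol were merged, leaving 22092 symbols.

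The 30 genes, the related lists and the markers were chosen with earlier results of these data known. All 30 genes are named. Of the 10 genes most like their sum, 1 is not reported here. Of each related list up to 3 called genes with at least 20 CPM per direction were named by size of ratio. Tfdp1 and Cdkn2c fall outside this rule and were named after their values were seen. Counts were summed over kept cells to CPM. Thinning drew 50000 counts per cell without replacement, with a fixed seed. Clusters used 2000 variable genes, 15 components, 10 neighbours and Leiden resolution 1 in scanpy 1.11.5. The clustering of all kept cells, used to leave out clusters, took 15 neighbours. A name needed 3 markers among the 100 leading genes and no other list with as many in the top 10, a rule set after seeing the data. No doublet caller was run. Poisson intervals (95%) cover counting error only. Clopper-Pearson intervals (95%) treat cells or genes as independent draws, which cells of 1 sample and genes of 1 list are not. With 1 sample a stage no p-value was computed. Python 3.11.15 was used with numpy 2.4.6, pandas 2.3.3 and scipy 1.17.1.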

Additional observations from a re-analysis of the deposited data

How the results depend on the processing

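Each stage was 1 sample, so stability here means stability over library pools and settings. Leaving out a pool cannot make separate pools overlap, so the number with pools not overlapping could then only stay or rise. A call could be lost that way only through its ratio. No paired analysis was possible because each stage was a single pooled sample and no number links samples of different stages. Leaving out each pool in turn, the number of the 30 genes called lower ran from 2 to 7 at E12.5 against E10.5 and from 2 to 4 at E15.5 against E12.5, and the number with pools not overlapping from 10 to 16 and from 5 to 9. With the mean of per-cell CPM the 2 counts of called genes were 7 and 1. At E15.5 against E12.5 the number with pools not overlapping was 3 with median-of-ratios size factors and 3 when, for every gene, the top cell of a pool was dropped. Over the whole span 13 genes were called with the mean of per-cell CPM and 15 with the top cells dropped. The number with pools not overlapping, 19 in the main calculation, was 15 and 21 under these settings. Leaving out the epidermis-, muscle- and endothelium-like clusters gave 10 called genes and 14 with pools not overlapping. The log2 ratio of the sum stayed negative under all settings tried, from -0.53 to -0.33, -0.65 to -0.44 and -1.03 to -0.95 with a pool left out, and -0.53, -0.46 and -0.99 with size factors. 0 of the 30 genes were called higher in any comparison under any of these settings.

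The median number of the 30 genes read per cell followed depth, at 17, 13 and 9 with 20000 counts and 24, 20 and 14.5 without thinning, in the same order of stages. Without the gene with most counts the median sum at E10.5 was 5059 CPM. The median pair correlation at E10.5 was 0.052 without thinning. The cartilage-like cluster was at 1763 CPM as a median over cells and 2010 CPM as a median over thinned cells. Totals without ribosomal protein genes and the thinned medians of clusters were added after the data were seen. The cause of these shifts was not tested. Of 212 recomputed group values, 191 stayed within the spread between pools, their interval or, for counts, 1.5 times the value reported, 21 moved further and 0 reversed. Of 1440 recomputed ratios of single genes, 13 lost and 28 gained a call, and 0 called ratios changed sign. Both totals include a setting without the filter on genes. Its values could not change, because all 30 genes passed that filter.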
